A study of Mus musculus with 8 samples.

Results

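The tumour suppressor p53, encoded in the mouse by Trp53, and 9 genes that act with it were followed in the hypothalamus after 2 hours of low oxygen. The 10 genes were taken by symbol from the deposited count table: Trp53, Mdm2, Mdm4, Cdkn1a, Ccng1, Plk2, Plk3, Bax, Trp53inp1 and Zmat3. Each symbol matched 1 Ensembl gene of the 55487 in the table, and all 10 were among the 17047 genes with enough counts to be tested.

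Polyadenylated RNA from the hypothalamus of C57BL/6J mice was sequenced in 8 libraries, which the study calls biological replicates without saying whether animals were pooled. The 4 hypoxia libraries are from mice that breathed 7% O2 (with 93% nitrogen) in a chamber for 2 hours, and the 4 normoxia libraries from mice kept at 21% O2 and also sampled after 2 hours. All animals were housed pathogen-free with food and water at will, and the labels give no genetic change and no age. The series concerns how hypoxia alters glucocorticoid receptor function.

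p53 is a transcription factor that is held at low levels in unstressed cells because MDM2, a ubiquitin ligase whose gene p53 itself switches on, marks it for destruction, while MDM4, a relative of MDM2, masks its activating domain. Stress to DNA or to metabolism frees p53 mainly at the level of the protein, and p53 then raises the transcripts of genes that stop the cell cycle, repair DNA or promote cell death. RNA counts record the transcripts of p53, its regulators and its targets, not the amount or activity of the protein.

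The p53 half-site, a short palindromic motif that is only part of a full p53 site, was sought near the starts of the genes. The 250 bases before each transcription start were available from RefSeq (GRCm38.p6, the assembly of mm10) for 8 of the 10 genes, in 10 windows. A p53 half-site on either strand was in 5 of the 10 windows, each of another gene, against 7.13% of all 32851 windows of that length. The stretches around these matches are shown to let the reader see where the motif lies in the genes whose transcript levels follow. Each is written from 5′ to 3′ on the strand of its gene, with the half-site in capitals.
Cdkn1a, chr17:29090881-29090962, plus strand: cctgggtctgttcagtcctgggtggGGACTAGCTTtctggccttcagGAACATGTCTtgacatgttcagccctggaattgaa
Trp53, chr11:69580259-69580318, plus strand: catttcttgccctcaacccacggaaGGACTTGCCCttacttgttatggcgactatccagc
Mdm2, chr10:117710910-117710969, minus strand: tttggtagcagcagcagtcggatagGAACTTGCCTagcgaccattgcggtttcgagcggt
Ccng1, chr11:40755437-40755496, minus strand: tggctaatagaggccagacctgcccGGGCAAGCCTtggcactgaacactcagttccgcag
Bax, chr7:45467065-45467124, minus strand: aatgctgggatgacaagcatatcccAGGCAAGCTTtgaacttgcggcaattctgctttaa
In Cdkn1a the 2 half-sites began 73 and 51 bases before the first of its 2 annotated starts, and in Trp53, Mdm2, Ccng1 and Bax the half-site began 75, 186, 185 and 201 bases before the start. No match to the motif lay in the windows of Mdm4, Plk2 or Plk3. The core of the hypoxia response element, ACGTG or GCGTG on either strand, was in 6 of the 10 windows (1 each of Cdkn1a, Mdm2, Ccng1, Plk2, Plk3 and Bax), against 38.6% of all windows. In Cdkn1a this core began 206 bases before the second annotated start, whose window held no half-site. A match is a run of letters and was not tested as a binding site.

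The libraries held 16994473 to 21694383 counts each. The 10 genes were well covered, with from 169 counts (Plk3 in normoxia replicate 2) to 3101 counts (Mdm4) per library, so that counting error alone was at most 7.69% of a value. Levels are given as CPM, the counts of a gene relative to its library's total after TMM normalization, and differences as log2 fold changes of hypoxia over normoxia with their standard error. Markers of the hypothalamus, neurons and glia were detected in every library. Normoxia replicate 2 stood apart. Its summed CPM of 8 cortex and hippocampus markers was 1724, against 741 to 942 in the 4 hypoxia libraries and 654 to 848 in the other 3 normoxia libraries. It was also the lowest of the 8 libraries in all 10 hypothalamus markers. The summed CPM of these markers was 704 to 835 in the hypoxia libraries. It was 595, 394, 853 and 652 in normoxia replicates 1 to 4, with all but replicate 3 below every hypoxia library. The summed CPM of 6 pituitary markers was 42.3 in hypoxia replicate 4 and 0.193 to 7.92 in the other 3 hypoxia libraries, and 80.3 in normoxia replicate 2 and 0.954 to 9.64 in the other 3 normoxia libraries. Normoxia replicate 1 was the highest in thalamus markers (384 CPM summed over 5 genes, against 118 to 198 in hypoxia and 106 to 152 in the other 3 normoxia libraries) and in oligodendrocyte markers. Calls and directions of the 10 genes that changed without normoxia replicate 2 or hypoxia replicate 4 are given below with and without them.

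After 2 hours of hypoxia, the set did not move as one. Trp53inp1 was the only one of the 10 genes to pass the test over all genes (edgeR quasi-likelihood test, Benjamini-Hochberg adjusted p under 0.05), and it was higher in hypoxia. Of all genes tested, 0.915% passed as higher and 1.23% as lower. Of the 10 genes, 1 was called higher and 0 lower, and at an unadjusted p under 0.05 the counts were 3 higher and 4 lower (19.3% of all genes tested had such a p). DESeq2 also called 1 higher and 0 lower, where it called 2.22% of all genes higher and 3.68% lower, and limma-voom called 2 higher and 0 lower, where it called 0.974% and 1.47% of all genes. Without normoxia replicate 2, edgeR called 2 higher (Trp53inp1 and Cdkn1a) and 1 lower (Trp53), beside 1.91% and 2.00% of all genes. Without hypoxia replicate 4 it called 1 higher and 0 lower, beside 1.37% and 2.65%. Without normoxia replicate 2 and hypoxia replicate 4 together it called 3 higher (with Plk3) and 0 lower, beside 2.66% and 4.31%. At an adjusted p under 0.1 with all libraries, Trp53 was called lower, as were 3.95% of all genes. The median log2 change of the 10 was −0.071, beside −0.0085 over all genes, and 7 of the 10 had a negative value, where 51.8% of all genes did. The values of both groups did not overlap in 5 of the 10 genes, with 2 above and 3 below normoxia, where 13.4% of all genes tested had no overlap (5.69% above and 7.75% below). With normoxia replicate 2 set aside, Cdkn1a joined them, and 6 of the 10 had no overlap, where 20.3% of all genes did.

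**Figure D1:**
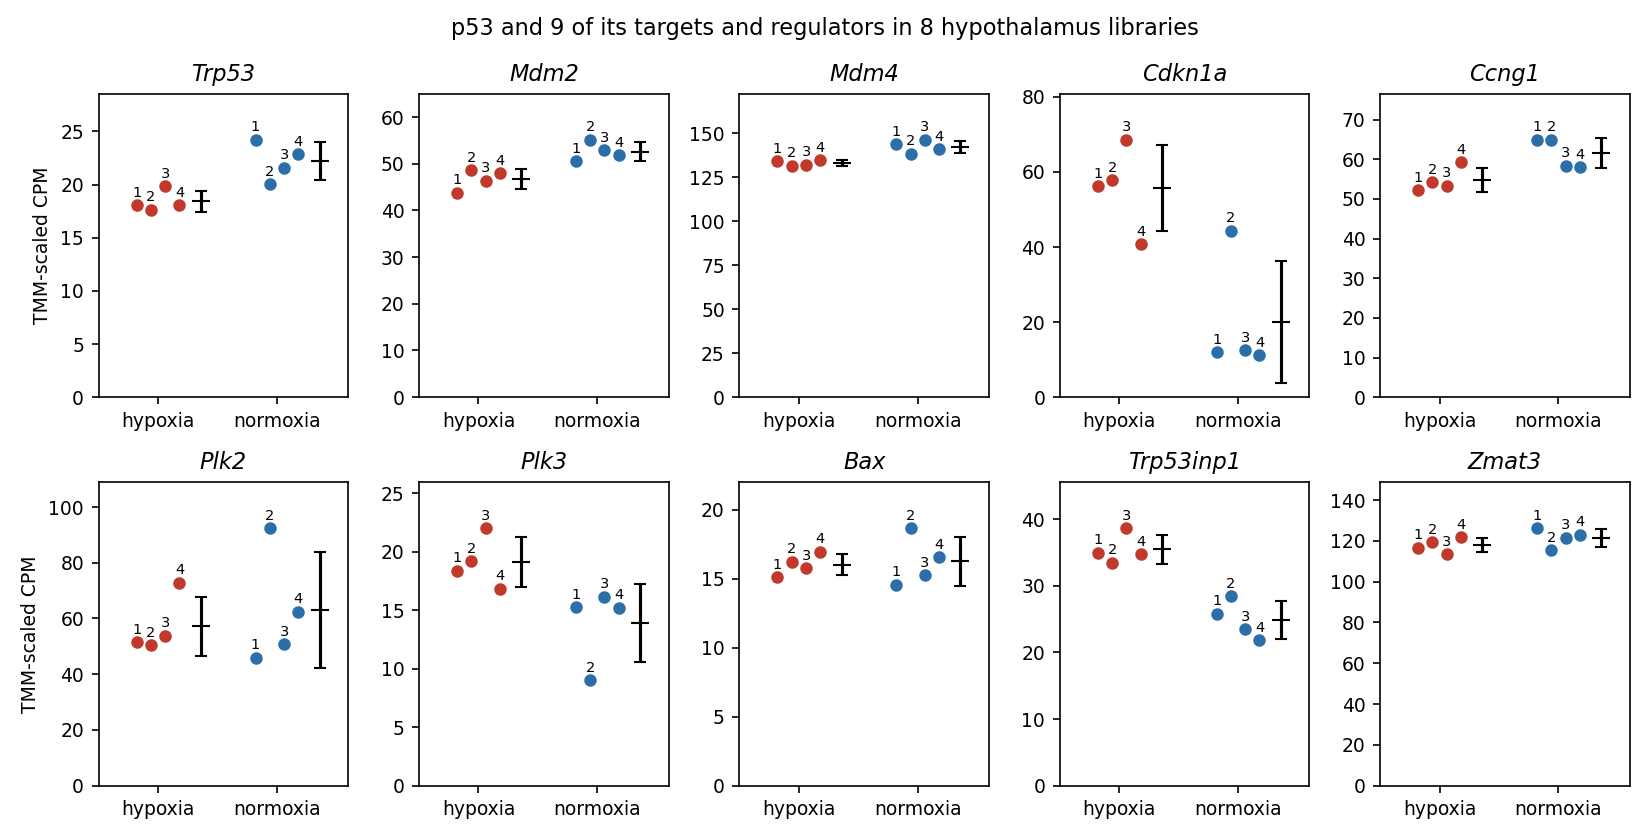
TMM-scaled CPM of the 10 genes in each library, hypoxia on the left and normoxia on the right of each panel, with the replicate number above each point and the mean and SD (n = 4) as a black bar. Trp53inp1 and Plk3 in hypoxia lie above all normoxia libraries, Trp53, Mdm2 and Mdm4 below them, and Cdkn1a in normoxia replicate 2 lies at 44.3 CPM, far above the other normoxia libraries.

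Trp53 itself, on chromosome 11 (69580359 to 69591873, plus strand), was at 18.1, 17.6, 19.9 and 18.1 CPM in hypoxia replicates 1 to 4, against 24.2, 20.0, 21.6 and 22.9 CPM in normoxia replicates 1 to 4. Every hypoxia library lay below every normoxia library, though hypoxia replicate 3 and normoxia replicate 2 were close. The means were 18.4 ± 0.985 and 22.2 ± 1.78 CPM (SD, n = 4 each), a log2 change of −0.27 ± 0.08 (SE) that did not pass the test (edgeR, adjusted p = 0.0986). Without normoxia replicate 2 the log2 change was −0.31 and passed (edgeR adjusted p = 0.0471). This was 1 call in 19 alternatives, over a range of 0.0471 to 0.247. Without normoxia replicate 1, the library with the highest Trp53 level, the log2 change was −0.22 (edgeR adjusted p = 0.202). A processed pseudogene, Trp53-ps, matches 99.9% of the Trp53 coding length at 95.0% identity. It had 10 to 33 counts per library, beside at least 331 for Trp53, and how reads shared by both were counted is not known here.

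Both negative regulators of p53 were slightly lower in hypoxia, and neither passed the test. Mdm2, the ubiquitin ligase gene on chromosome 10 (117688875 to 117710758, minus strand), was at 43.8, 48.7, 46.4 and 48.0 CPM in hypoxia replicates 1 to 4, against 50.5, 55.1, 52.9 and 51.9 CPM in normoxia replicates 1 to 4. The groups did not overlap, and the log2 change was −0.17 ± 0.05 (SE; edgeR adjusted p = 0.116). Mdm4 was the steadiest of the 10 genes, at 134, 131, 132 and 135 CPM in hypoxia and 144, 138, 146 and 141 CPM in normoxia, a coefficient of variation of 1.13% and 2.42%. Its groups did not overlap either, but the difference was a log2 of only −0.10 ± 0.04 (adjusted p = 0.216). In 19 alternative analyses the log2 change ran from −0.20 to −0.14 for Mdm2 and from −0.12 to −0.08 for Mdm4, with 0 calls for either. A processed pseudogene of Mdm4, at 93.1% identity, had 0 to 2 counts per library.

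Cdkn1a encodes p21, the inhibitor of cyclin-dependent kinases through which p53 halts the cell cycle. The gene, on chromosome 17 (29090976 to 29100727, plus strand), had the largest difference of the set. It was at 56.1, 57.9, 68.6 and 40.7 CPM in hypoxia replicates 1 to 4, against 11.99, 44.3, 12.6 and 11.3 CPM in normoxia replicates 1 to 4. Normoxia replicate 2 lay among the hypoxia libraries, above hypoxia replicate 4, and the other 3 normoxia libraries were far below all 4 hypoxia libraries. With all 8 libraries the means were 55.8 ± 11.5 and 20.0 ± 16.2 CPM (SD, n = 4 each). The log2 change was 1.48 ± 0.43 (SE), which did not pass the test (edgeR, adjusted p = 0.103).

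The call for Cdkn1a depended on normoxia replicate 2. Without it the log2 change was 2.23 and passed the test (adjusted p = 0.000856), and without it and hypoxia replicate 4 it was 2.35 (adjusted p = 6.52e-06). Limma-voom on all 8 libraries also called the gene (log2 1.75, adjusted p = 0.0422). Over 19 alternatives the adjusted p ran from 6.52e-06 to 0.27, with 3 calls. Normoxia replicate 2 is the library with high cortex and hippocampus markers, and the part of these in its Cdkn1a level was not tested. The gene shares 7.7% of its exon length with AC167363.2 on the opposite strand, which had 1 to 9 counts per library, beside at least 219 for Cdkn1a.

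**Figure D2:**
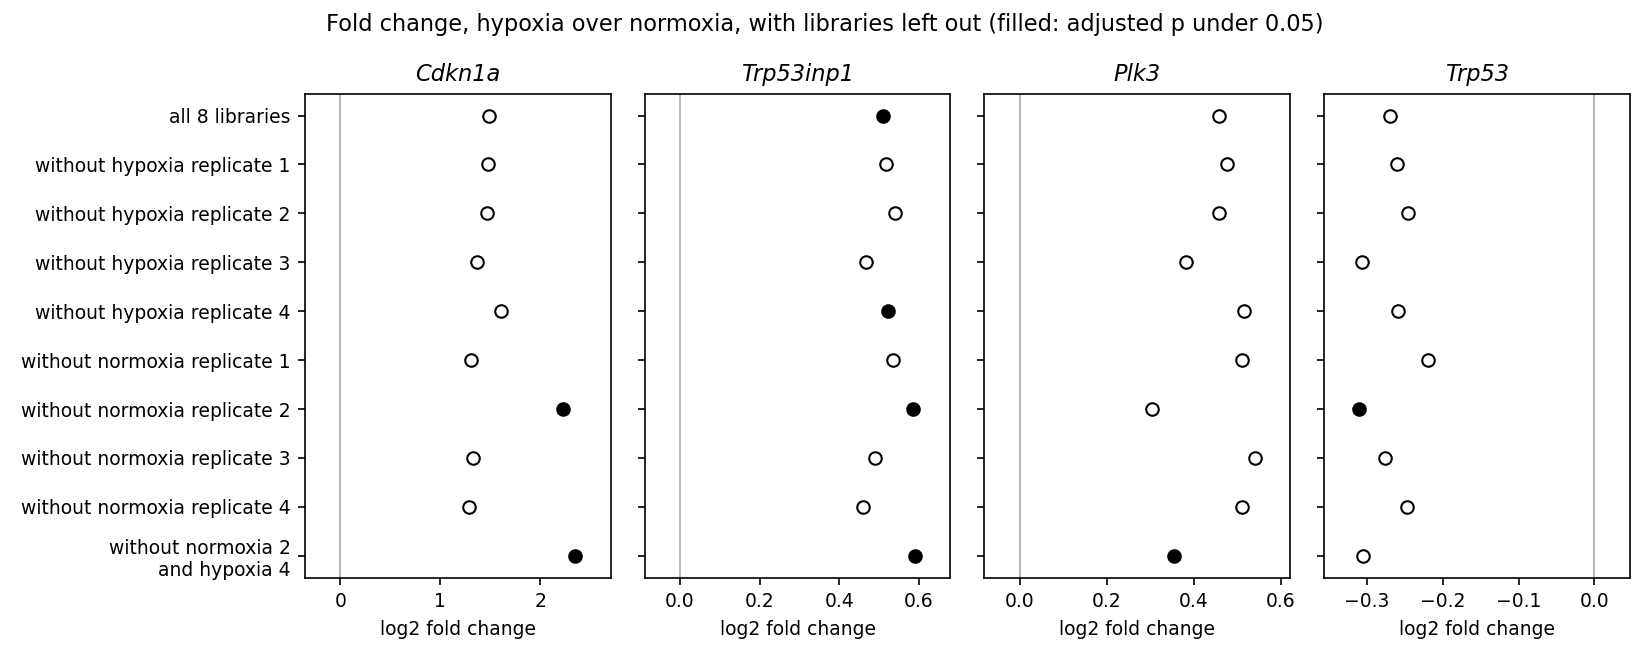
Log2 fold change of hypoxia over normoxia for Cdkn1a, Trp53inp1, Plk3 and Trp53 with all 8 libraries and with libraries left out, filled where the adjusted p was under 0.05. Cdkn1a moves from 1.48 with all libraries to 2.23 without normoxia replicate 2, while Trp53inp1 stays between 0.46 and 0.59 and Trp53 between −0.31 and −0.22.

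The 3 genes with levels most like those of Cdkn1a across the 8 libraries were Apold1, Sgk1 and Arl4d, out of 13893 genes compared. Likeness was the root mean square difference of log2 CPM after centring each gene on its own mean, which was 0.24, 0.27 and 0.34 for the 3 genes, where Cdkn1a itself had a standard deviation of 1.05. Apold1, an early response gene of endothelial cells, was at 14.0, 11.4, 15.6 and 8.49 CPM in hypoxia and 3.53, 14.996, 3.04 and 2.45 CPM in normoxia. Sgk1, the serum- and glucocorticoid-regulated kinase, was at 199, 243, 194 and 121 CPM in hypoxia and 37.3, 94.5, 37.8 and 38.6 CPM in normoxia. All 3 shared with Cdkn1a a high value in normoxia replicate 2 within normoxia and their lowest hypoxia value in hypoxia replicate 4. The genes were chosen for likeness over these same 8 libraries, so these shared features follow from the choice and are no separate evidence. Of the 3, Sgk1 was called higher (adjusted p = 0.0301), and Apold1 and Arl4d were not (0.308 and 0.0816). All 3 were called without normoxia replicate 2, as Cdkn1a was, which also follows in part from the choice. The log2 change was then 2.05 for Apold1, against 1.05 with all libraries, 2.33 for Sgk1, against 1.87, and 1.64 for Arl4d, against 1.20.

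**Figure D3:**
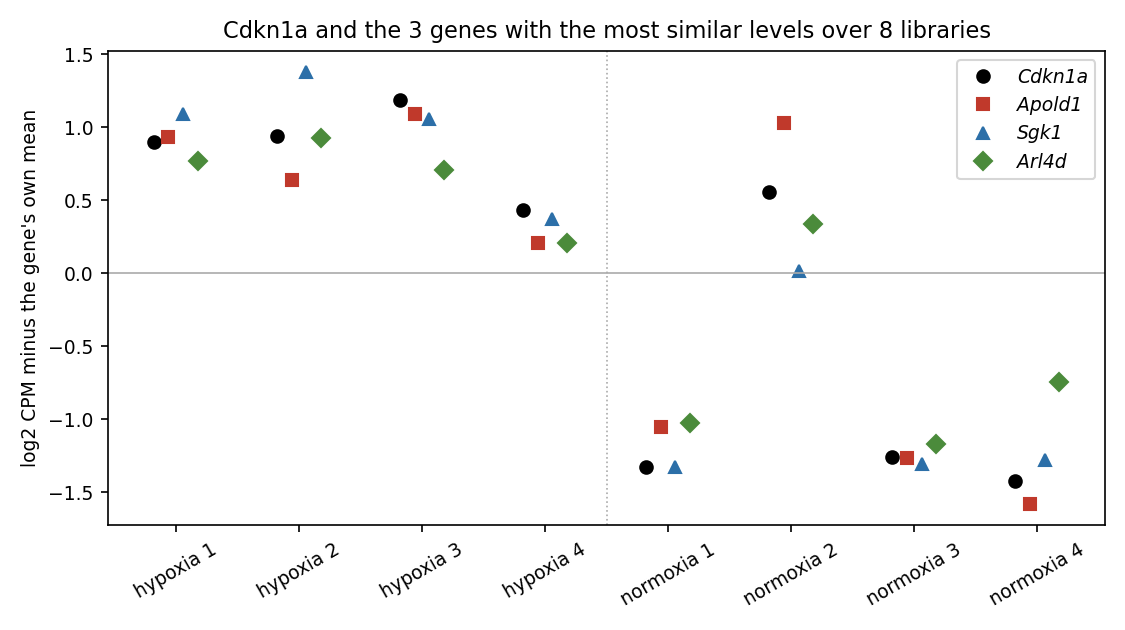
Log2 CPM of Cdkn1a, Apold1, Sgk1 and Arl4d in each of the 8 libraries, each gene centred on its own mean. In all 4 genes normoxia replicate 2 lies above the other normoxia libraries and hypoxia replicate 4 is the lowest hypoxia library. The genes other than Cdkn1a were chosen for their likeness to it.

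Ccng1, which encodes cyclin G1, a p53 target that recruits a phosphatase to MDM2, was at 52.2, 54.3, 53.3 and 59.3 CPM in hypoxia replicates 1 to 4, against 64.9, 64.9, 58.4 and 58.1 CPM in normoxia replicates 1 to 4. Hypoxia replicate 4 overlapped the normoxia range, and the other 3 hypoxia libraries lay below it. The log2 change was −0.17 ± 0.06 (SE) and did not pass (edgeR, adjusted p = 0.173, and 0 calls in 19 alternatives). Its relative Ccng2, cyclin G2, had a log2 change of −0.54 ± 0.19 (adjusted p = 0.156), with normoxia replicate 2 the highest of the 8 libraries. Without that library it was −0.32 (adjusted p = 0.14), and without hypoxia replicate 4 as well −0.45, which passed (adjusted p = 0.0071).

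The polo-like kinases Plk2 and Plk3 are p53 targets in cells with DNA damage and are also induced by synaptic activity in neurons. Plk3, on chromosome 4 (117128655 to 117133963, minus strand), was at 18.4, 19.2, 21.98 and 16.8 CPM in hypoxia replicates 1 to 4, against 15.2, 8.99, 16.1 and 15.2 CPM in normoxia replicates 1 to 4. The groups did not overlap, but hypoxia replicate 4 and normoxia replicate 3 were close and normoxia replicate 2 was far below the rest. The log2 change was 0.46 ± 0.17 (SE; edgeR adjusted p = 0.184), and without normoxia replicate 2 it was 0.30 (adjusted p = 0.104). It passed in 1 of 19 alternatives, without normoxia replicate 2 and hypoxia replicate 4 together (log2 0.36, adjusted p = 0.0485, in a range of 0.0485 to 0.418). Plk3 shares 3.3% of its exon length with Tctex1d4 on the opposite strand, which had 8 to 31 counts per library. The genes with levels most like those of Plk3 were Agbl4, Mafk and Ssc4d, at root mean square differences of 0.068, 0.091 and 0.093 in log2 CPM. All 3 were lowest in normoxia replicate 2, which follows from their choice by likeness over the same libraries.

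Plk2 was at 51.4, 50.5, 53.8 and 72.9 CPM in hypoxia replicates 1 to 4, against 45.9, 92.4, 50.9 and 62.4 CPM in normoxia replicates 1 to 4. The groups overlapped throughout, and the highest values were those of hypoxia replicate 4 and normoxia replicate 2. The log2 change was −0.14 ± 0.21 (SE; edgeR adjusted p = 0.765), and it was 0.11 without normoxia replicate 2. In that library Plk2 was thus the highest of the 8 and Plk3 the lowest. The 3 other members of the family, Plk1, Plk4 and Plk5, had log2 changes of −0.44, −0.086 and 0.20, and none was called. That of Plk4 was −0.17 without normoxia replicate 2.

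Bax, whose product opens the outer mitochondrial membrane in apoptosis, was at 15.1, 16.3, 15.8 and 16.97 CPM in hypoxia replicates 1 to 4, against 14.6, 18.7, 15.3 and 16.6 CPM in normoxia replicates 1 to 4. The log2 change was −0.02 ± 0.09 (SE; edgeR adjusted p = 0.921), and the hypoxia values all fell inside the normoxia range. A transcript named Gm45808 that shares 12.2% of the exon length of Bax on the same strand had 0 counts in every library. Its antagonists were measured as relatives of the set. Bcl2l1, which encodes the survival protein BCL-XL, was at 118 ± 8.15 CPM in hypoxia and 99.7 ± 5.54 CPM in normoxia (SD, n = 4 each) with no overlap, a log2 change of 0.24 ± 0.06 (adjusted p = 0.0816). It passed in 4 of 19 alternatives, with DESeq2 (adjusted p = 0.0226) and without hypoxia replicate 4, normoxia replicate 2 or both, over a range of 0.0145 to 0.233. Bcl2 had a log2 change of −0.11 and was not called.

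Trp53inp1, tumour protein p53 inducible nuclear protein 1, acts as a cofactor of p53 in the nucleus and promotes autophagy in the cytoplasm. The gene lies on chromosome 4 (11156431 to 11174379, plus strand). It was at 35.0, 33.5, 38.6 and 34.7 CPM in hypoxia replicates 1 to 4, against 25.8, 28.4, 23.5 and 21.8 CPM in normoxia replicates 1 to 4. All 4 hypoxia libraries were above all normoxia libraries, normoxia replicate 2 being the nearest to them. Trp53inp1 rose to 35.4 ± 2.21 CPM in hypoxia, against 24.9 ± 2.85 CPM in normoxia (SD, n = 4 each), a log2 change of 0.51 ± 0.09 (SE; edgeR adjusted p = 0.0284).

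The direction of Trp53inp1 was the same in 19 of 19 alternatives, with log2 changes from 0.46 to 0.59. It was called in 12 of them, over a range of adjusted p from 5.37e-05 to 0.121. Of the 8 fits without 1 library, it was called in 2. These left out hypoxia replicate 4 (adjusted p = 0.0306) and normoxia replicate 2 (adjusted p = 0.0059). Without any 1 of hypoxia replicates 1, 2 and 3 and normoxia replicates 1, 3 and 4, the adjusted p ran from 0.0705 to 0.12. The share of all genes called in those fits is not given here. A loss particular to Trp53inp1 can thus not be told apart from a general loss of calls. The genes with levels most like those of Trp53inp1 were Yrdc, a tRNA-modifying enzyme gene, Mt1, a metallothionein gene, and Map10, a microtubule-associated protein gene, at root mean square differences of 0.079, 0.092 and 0.093 in log2 CPM. Mt1 was at 162, 169, 173 and 160 CPM in hypoxia and 110, 126, 115 and 114 CPM in normoxia. Its relative Trp53inp2, an autophagy gene, had a log2 change of −0.24 ± 0.12 (adjusted p = 0.294).

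Zmat3, an RNA-binding zinc finger gene induced by p53, was at 117, 119, 114 and 122 CPM in hypoxia replicates 1 to 4, against 126, 115, 122 and 123 CPM in normoxia replicates 1 to 4. The groups overlapped and the log2 change was −0.04 ± 0.05 (SE; edgeR adjusted p = 0.633). It ran from −0.08 to −0.02 over 19 alternatives, with 0 calls.

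**Figure D4:**
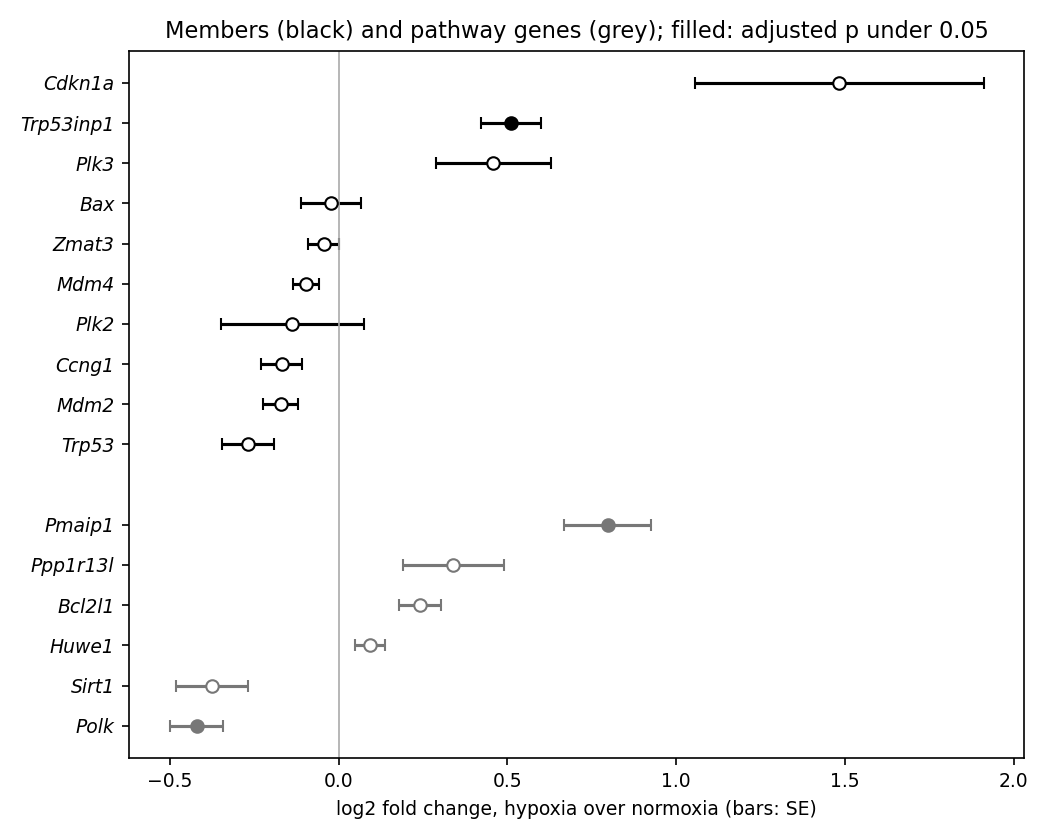
Log2 fold change of hypoxia over normoxia with its standard error for the 10 genes (black) and for 6 other genes (grey), filled where the adjusted p was under 0.05. The grey genes are from the pathway lists, apart from Bcl2l1, a relative of the 10 genes. Trp53inp1 at 0.51 and Pmaip1 at 0.80 are the filled points above 0 and Polk at −0.42 is the filled point below, while Cdkn1a has the largest value, 1.48, and the widest bar.

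To compare levels between genes, CPM were divided by the length of each gene's merged exons in kilobases. On this scale the 10 genes ran from 4.55 to 15.7 CPM per kilobase in hypoxia and from 3.84 to 17.5 (Ccng1) in normoxia. In hypoxia Cdkn1a was the first, at 15.7 ± 3.23 CPM per kilobase, with Ccng1 at 15.6 ± 0.889 (SD, n = 4) and Plk2 at 12.7 ± 2.35, and Trp53 was the last, at 4.55 ± 0.243. Cdkn1a and Ccng1 did not differ beyond their spread there, nor did Zmat3 and Bax at 10.3 ± 0.31 and 10.2 ± 0.494, or Mdm2 and Mdm4 at 9.19 ± 0.423 and 8.99 ± 0.101. Plk3 and Trp53inp1 lay between Mdm4 and Trp53, at 7.54 ± 0.854 and 5.47 ± 0.341. In normoxia Cdkn1a was at 5.64 ± 4.56 CPM per kilobase, near Plk3 (5.49 ± 1.3) and Trp53 (5.48 ± 0.441), and Trp53inp1 was the last, at 3.84 ± 0.44. This order changed without normoxia replicate 2. Cdkn1a was then the last, at 3.36 ± 0.185 CPM per kilobase, below Trp53inp1 at 3.66 ± 0.308 by less than the spread, and Trp53 and Plk3 were at 5.66 ± 0.324 and 6.13 ± 0.209 (SD, n = 3).

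Beyond the 10 genes, 56 genes in 5 lists of the p53 pathway were examined, of which 51 were tested. Of these 1 was called higher and 1 lower, where 0.915% and 1.23% of all genes tested were, so the counts are near the background. The median log2 change was 0.03, beside −0.0085 over all genes. Without normoxia replicate 2 the counts were again 1 and 1, beside 1.91% and 2.00% of all genes. Without hypoxia replicate 4 they were 1 and 2, beside 1.37% and 2.65%. Without both, 3 were higher (Pmaip1, Sesn1 and Trp53bp2) and 3 lower (Polk, Sirt1 and Chek2), where 2.66% and 4.31% of all genes were called. When normoxia replicate 1 was left out, neither Pmaip1 (adjusted p = 0.071) nor Polk (0.0938) passed. Nor did either pass without any 1 of hypoxia replicates 1, 2 and 3 and normoxia replicates 3 and 4. The share of all genes called in those fits, or without normoxia replicate 1, is not given here. The losses can thus not be told apart from a general loss of calls. Of 12 apoptosis targets tested, 1 was higher and 0 lower (0.915% and 1.23% of all genes), with a median log2 change of 0.07. Pmaip1, which encodes the pro-apoptotic protein NOXA, rose to 4.35, 4.42, 3.87 and 4.04 CPM in hypoxia replicates 1 to 4, against 2.35, 2.18, 2.76 and 2.32 CPM in normoxia replicates 1 to 4. The groups did not overlap, and the log2 change was 0.80 ± 0.13 (SE; edgeR adjusted p = 0.0261). It was called in 12 of 19 alternatives (adjusted p from 0.00113 to 0.128), and of the fits without 1 library only without hypoxia replicate 4 or normoxia replicate 2. Bbc3, the gene of the related protein PUMA, had a log2 change of −0.31 ± 0.17 (adjusted p = 0.339) and Fas, the death receptor gene, 0.42 ± 0.17 (0.226).

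Of 12 targets in cell cycle arrest, repair and metabolism that were tested, 0 were higher and 1 was lower (0.915% and 1.23% of all genes), with a median log2 change of 0.07. Polk, which encodes a DNA polymerase that copies past damaged bases, fell to 12.4, 12.9, 11.02 and 13.6 CPM in hypoxia replicates 1 to 4, against 17.4, 16.6, 16.2 and 16.6 CPM in normoxia replicates 1 to 4. The groups were well apart, and the log2 change was −0.42 ± 0.08 (SE; edgeR adjusted p = 0.0366). It too was called in 12 of 19 alternatives (adjusted p from 0.00221 to 0.135), and of the fits without 1 library only without hypoxia replicate 4 or normoxia replicate 2. The targets Sesn1, Sesn2, Gadd45a and Btg2 had log2 changes of 0.15, 0.12, 0.028 and −0.081, and none was called with all libraries. With normoxia replicate 2 left out they were 0.25, 0.086, −0.085 and 0.04, the direction of Gadd45a and Btg2 being turned, and Sesn1 passed without that library and hypoxia replicate 4 (log2 0.27, adjusted p = 0.0362). Eda2r, Psrc1, Gdf15 and Gtse1 had at most 26 counts in any library and were not tested.

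Upstream of p53, 0 of 15 kinases and modifiers tested were called in either direction by edgeR, 2 had an unadjusted p under 0.05 (19.3% of all genes had), and DESeq2 called 1, Sirt1, lower (3.68% of all genes). The smallest p was that of Sirt1, a deacetylase that acts on p53, at 16.3 ± 2.1 CPM in hypoxia and 21.1 ± 2.08 CPM in normoxia (SD, n = 4 each; log2 −0.37 ± 0.11, SE; edgeR adjusted p = 0.101). It passed without hypoxia replicate 4 (adjusted p = 0.0441) and without that library and normoxia replicate 2 (0.0365). The other was Chek2, a checkpoint kinase gene named after its values were seen, at 1.3 to 2.15 CPM in hypoxia and 2.18 to 3.16 CPM in normoxia (log2 −0.63 ± 0.20, adjusted p = 0.13), which passed without both libraries (0.0485). Atm and Atr, the kinases that sense DNA damage, had log2 changes of −0.10 and −0.03. Cdkn2a, the gene of the MDM2 inhibitor ARF, had 0 counts in all 8 libraries.

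Of 6 genes for ligases and a phosphatase that act on p53, 0 were called by edgeR, DESeq2 or limma-voom, and 0 had an unadjusted p under 0.05. Huwe1, a ubiquitin ligase gene, had the smallest p (log2 0.09 ± 0.04, adjusted p = 0.282). Of the 6 p53 relatives and cofactors, 0 were called by these 3 tools and 1 had an unadjusted p under 0.05 (19.3% of all genes had). This was Ppp1r13l, the gene of the inhibitor iASPP (log2 0.34 ± 0.15, adjusted p = 0.256). With edgeR, and with normoxia replicate 2 and hypoxia replicate 4 left out, Trp53bp2, the gene of the p53-binding protein ASPP2, was called higher. In that fit 2.66% of all genes were. Trp63 and Trp73 were low, at 1.88 to 2.32 and 3.62 to 5.34 CPM in hypoxia and 1.7 to 3.1 and 3.15 to 4.81 CPM in normoxia. Of 20 relatives of the 10 genes, edgeR called 0 in either direction, 3 had an unadjusted p under 0.05 (19.3% of all genes had) and DESeq2 called 1, Bcl2l1, higher (2.22% of all genes). Without normoxia replicate 2 and hypoxia replicate 4, edgeR called 1 higher (Bcl2l1) and 2 lower (Ccng2 and Cdkn1b). Of all genes, 2.66% were called higher and 4.31% lower in that fit. Cdkn1b, which encodes p27, a kinase inhibitor of the same family as p21, had a log2 change of −0.26 ± 0.08 (adjusted p = 0.111; 0.0316 without both libraries), opposite in sign to Cdkn1a.

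**Figure D5:**
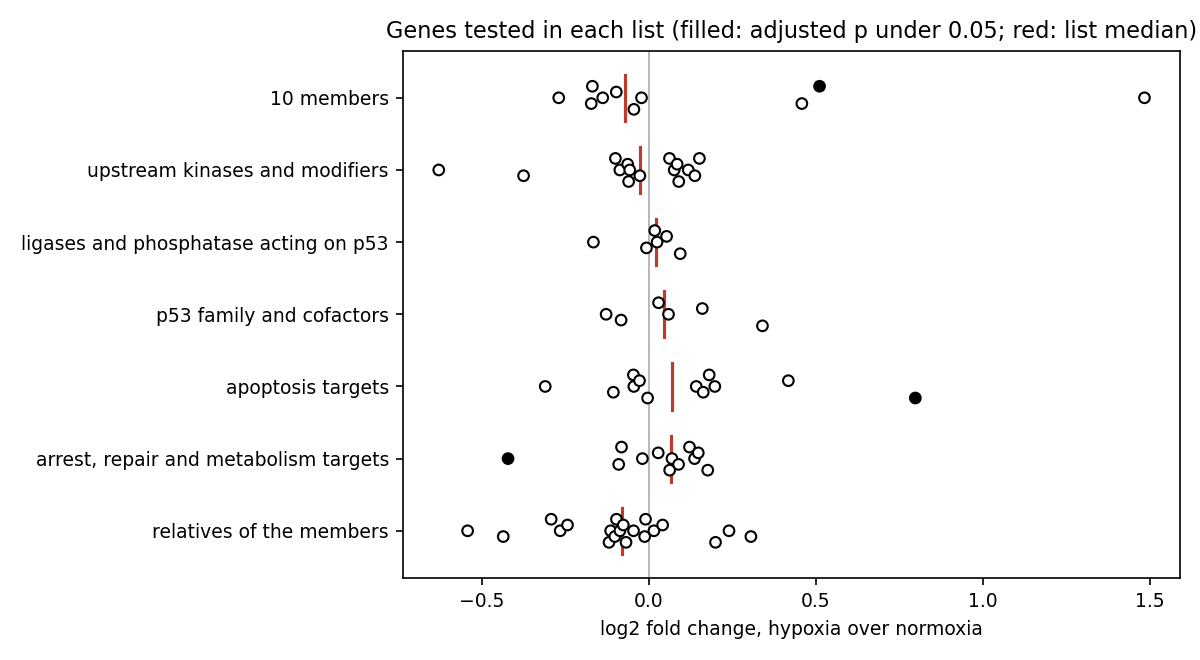
Log2 fold change of hypoxia over normoxia of each gene tested in the set of 10 and in the other lists, filled where the adjusted p was under 0.05, with list medians in red; the vertical scatter within a row has no meaning. The list medians lie between −0.08 and 0.07, and the filled points are Trp53inp1, Pmaip1 and Polk.

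The tissue was a mixture of cell types, so fewer cells of a type and less RNA per cell cannot be told apart. Members were called in only some of the 15 lists of cell type and region markers. Higher were 1 of 3 oligodendrocyte precursor markers and 1 of 4 mural cell markers. Lower were 1 of 5 endothelium markers and 1 of 7 cortex and hippocampus markers tested. Of all genes tested, 0.915% were called higher and 1.23% lower. The median log2 changes of these lists were 0.17, −0.063, −0.11 and −0.34, so the called mural cell marker was opposite in sign to its list median. Summed CPM of the endothelium markers was 191 to 219 in hypoxia and 206 to 246 in normoxia, and of the astrocyte markers 3058 to 3201 and 2935 to 3283. The striatum markers were at 384 to 635 CPM in hypoxia and 214 to 579 CPM in normoxia, with a median log2 change of 0.43, and the thalamus markers had a median of −0.43. Of the 6 striatum and 5 thalamus markers, 0 were called by edgeR, DESeq2 or limma-voom, and 0 had an unadjusted p under 0.05. The 10 hypothalamus markers had a median log2 change of 0.25, also with 0 called by these tools and 0 at an unadjusted p under 0.05. Oligodendrocyte markers were at 6145 to 9200 CPM in hypoxia and, with normoxia replicate 1 the highest, at 5993 to 10743 CPM in normoxia. Of the 15 lists only the pituitary list held a marker at 0 counts in all libraries, and the part of these shifts in the values of the 10 genes was not tested.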

How the data were processed

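The data are raw read counts per Ensembl gene in 8 libraries of polyadenylated RNA (TruSeq Stranded mRNA, per the labels' protocols), deposited by the authors as 1 table with no normalization. Per the submitters' processing notes, the tools were featureCounts, HISAT, HISAT2 2.0.4, Trimmomatic, SAMtools and DESeq2, and the build was mm10. With annotation, strand setting and handling of multi-mapped reads not given in the sources used here, values of overlapping genes and of genes with copies are less certain. Columns were matched to libraries by the sample descriptions, and the design text calls the replicates biological.

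The test was edgeR's quasi-likelihood F test (edgeR 4.0.16, R 4.3.3), run on the counts of all genes kept by filterByExpr (minimum count 10, minimum total 15), with TMM scaling, group as the only term, and Benjamini-Hochberg adjustment over 17047 genes at a threshold of 0.05. The script was tested on simulated data. Symbols (55141 of 55487 genes), positions, merged exon lengths and overlaps came from GENCODE M21 (GRCm38), copies from BLAST 2.17.0 of coding sequences against its transcripts, and promoters from RefSeq. Alternatives were DESeq2 1.42.0, limma-voom (limma 3.58.1), other scalings, filters and thresholds, a block for the replicate number, and libraries left out. The members, lists and alternatives were chosen with earlier results of these data known. From each pathway list the text names the genes called (at most 4 per direction) or, where none was, that with the smallest p. Likeness was taken for the 3 members with the largest absolute log2 change. Other genes named, such as Bbc3, Fas, Chek2, Ccng2, Cdkn1b, the sestrins and the Plk and BCL2 relatives, were chosen after their values were seen.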

Additional observations from a re-analysis of the deposited data

Results flagged for a closer look

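In 4 of 32 groups of 4 libraries (2 groups for each of 16 genes), the gap between 1 library and the next, divided by the range of the group, was above Dixon's critical value for 4 samples. If values are normally distributed, chance gives this in about 1 in 20 groups. The share over all genes tested was not counted, so the number of groups flagged is no trait of these genes. Cdkn1a was at 44.3 CPM in normoxia replicate 2, against 11.3 to 12.6 CPM in the other 3 normoxia libraries. Plk3 was at 8.99 CPM in the same library, against 15.2 to 16.1 CPM in the other 3. Plk2 was at 72.9 CPM in hypoxia replicate 4, against 50.5 to 53.8 CPM in the other 3 hypoxia libraries. Huwe1 was at 489 CPM in hypoxia replicate 2, against 531 to 536 CPM in the other 3 hypoxia libraries. Cortex and hippocampus markers were also highest in normoxia replicate 2 (1724 CPM summed), and pituitary markers were higher in hypoxia replicate 4 (42.3 CPM) than in the other hypoxia libraries. Their part in these values was not tested.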

How the results depend on the processing

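Of the 10 genes, 1 was called higher and 0 lower with all 8 libraries, beside 0.915% and 1.23% of all genes. Limma-voom called 2 higher, beside 0.974% of all genes. With normoxia replicate 2 and hypoxia replicate 4 left out together 3 were higher, beside 2.66%, so calls over all genes also rose. Leaving out 1 library at a time gave 0 to 2 higher and 0 to 1 lower. For these fits, the share of all genes called is given only where normoxia replicate 2 or hypoxia replicate 4 was left out. The 2 higher (Trp53inp1 and Cdkn1a) and the 1 lower (Trp53) came without normoxia replicate 2, beside 1.91% and 2.00% of all genes. At an adjusted p under 0.1, 1 was lower (Trp53), as were 3.95% of all genes. Library size alone, upper-quartile and DESeq2 scaling, both other filters, DESeq2, robust estimation and the newer quasi-likelihood form left the counts at 1 and 0. With the replicate number as a block, 0 were higher and 0 lower, and 21 of all genes tested were called, against 366 without it. Same-numbered libraries did not deviate together from their group means (r from −0.11 to 0.04 over 4 pairs, and 0 of 8 libraries correlated best with their own number), so the numbers were not taken as pairs. Direction changed for Plk2 without normoxia replicate 2 (log2 from −0.28 to 0.11 over the fits without 1 library). It changed for Bax without hypoxia replicate 1 or normoxia replicate 2 (log2 from −0.067 to 0.055 over the same fits), and without normoxia replicate 2 and hypoxia replicate 4 together (0.021). The cause was not tested. The median log2 change of all genes moved by less than 0.1 under every scaling. Counting error alone was at most 7.69% of a value in the 10 genes.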
